A study of Mus musculus with 8 samples.

Results

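CD4 T cells of the mouse colon were compared between S203AKI mice, a mutant line named here as in the sample titles, and wildtype (WT) mice, over untreated and colitic animals together. A cell was counted as a CD4 T cell when it was on the authors' cell list, held at least 2 unique molecular identifiers (UMIs, each standing for 1 captured transcript) of Cd3e, Cd3d, Cd3g, Trac and Trbc2 together, and held at most 1 UMI each of Cd79a, Col3a1 and C1qa. This rule kept 19833 of the 27420 listed cells, which came from 100673 barcodes in all, and 10075 of the kept cells were from S203AKI mice and 9758 from WT mice. At the edge of the rule, 1970 listed cells held exactly 2 UMIs of the T cell genes and 1604 held 1.

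All animals were C57BL/6 mice of 10 to 12 weeks kept under specific-pathogen-free conditions. The 4 groups were untreated WT and untreated S203AKI mice, which drank plain water for 10 days, and DSS-treated WT and DSS-treated S203AKI mice, which drank 2% dextran sulfate sodium (DSS) for 7 days and plain water for 3 days. DSS injures the gut epithelium and causes colitis. Lamina propria cells were taken on day 10, enriched for CD4 T cells with a magnetic isolation kit and sequenced as 3' droplet libraries, with 2 libraries per group that the series describes as independent biological replicates. The labels name no promoter, Cre or cell type that would limit the mutation to T cells. The submitters compared genotypes within each treatment, whereas here the 4 S203AKI libraries were compared with the 4 WT libraries and DSS was a covariate.

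T helper 17 (Th17) cells are CD4 T cells that make the cytokines IL-17A, IL-17F and IL-22 and guard mucosal surfaces. Regulatory T cells, which express the transcription factor Foxp3, restrain inflammation and are abundant in the colon. In the gut, IL-22 and IL-17A act on the epithelium and take part in its repair after injury.

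Each library held 1800 to 3507 CD4 T cells with 6722571 to 15569035 UMIs in sum, and the median UMIs per cell ranged from 2161.5 to 3155. Every kept cell had a Cd4 UMI, and a Cd8a UMI was found in 0.0855% to 0.420% of cells per library. Mitochondrial transcripts took 2.98% to 3.88% of UMIs. Between 0 and 6 T cell barcodes were shared by any of the 28 pairs of libraries, 90 cells in all. The first principal component, with 48.7% of the variance over libraries, separated all 4 DSS libraries from all 4 untreated ones, and the genotypes overlapped on it. An Hspa1a or Hspa1b (heat-shock gene) UMI was found in 58.4% and 37.9% of cells in untreated and 24.4% and 46.6% in DSS-treated S203AKI libraries, against 13.7% to 28.3% in WT libraries, so 3 of 4 S203AKI libraries lay above every WT library. These shares were not adjusted for depth. The median UMIs per cell were 2734 and 2553 in untreated and 2161.5 and 3155 in DSS-treated S203AKI libraries, against 2171 to 2672.5 in WT libraries. DSS-treated S203AKI replicate 2 had the largest number of cells and the highest median UMIs per cell.

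Few genes separated the genotypes. Of 10965 genes tested with edgeR's quasi-likelihood test, 2 passed a Benjamini-Hochberg adjusted p of 0.05 (0.0182% of genes tested), the epidermal keratin gene Krt14 and the glutathione transferase gene Gsta4, and both rose in S203AKI libraries. At an unadjusted p under 0.05 stood 355 genes (3.24%), 230 of them higher (2.1%) and 125 lower (1.14%). The median standard error was 0.13 on the log2 scale, and for 92.5% of genes the 95% interval lay within a 2-fold change in either direction. In 268 genes (2.44%) both S203AKI libraries lay above both WT libraries in each treatment, and in 164 genes (1.5%) both lay below. DESeq2 on the same counts called 7 genes, all higher: Krt14, Krt6a, Gsta4, Krt5, Lgals7, Plpp3 and Ly6d. Calls below are those of the edgeR fit with the low-count filter and DSS covariate (the main fit) unless another is named.

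Krt14 encodes a keratin of the basal layer of squamous epithelium. Its level was 30.9 and 30.7 CPM (UMIs scaled to 1000000 UMIs of the CD4 T cells of the library) in the DSS-treated WT libraries and 105 and 78.6 CPM in the DSS-treated S203AKI libraries. Untreated libraries held 0 and 0 Krt14 UMIs in WT mice and 1 and 0 in S203AKI mice. The fitted log2 fold change of S203AKI over WT over all libraries was 1.55 (standard error, SE, 0.16), with an adjusted p of 0.0110 in edgeR and up to 1.0 over the alternatives. Both DSS-treated S203AKI libraries were above both DSS-treated WT libraries, and the untreated libraries were all at or next to 0.

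Gsta4, which encodes an enzyme that conjugates glutathione to products of lipid peroxidation, was low throughout. It stood at 0.445 and 0.277 CPM in untreated WT, 1.04 and 0.836 CPM in untreated S203AKI, 3.31 and 3.72 CPM in DSS-treated WT and 13.5 and 15.0 CPM in DSS-treated S203AKI libraries. The untreated levels rest on 2 to 7 UMIs. S203AKI libraries were the higher ones in each treatment, and edgeR gave a log2 fold change of 1.91 (SE 0.21) with an adjusted p of 0.0110.

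The genes next in order were mostly keratins and other genes known from keratinocytes. Krt17, a keratin of injured and appendage epithelium, stood at 6.54 and 4.13 CPM in DSS-treated WT and 43.9 and 36.7 CPM in DSS-treated S203AKI libraries, with an adjusted p of 0.0513. Krt6a, a keratin of wounded epithelium, stood at 10.7 and 15.98 CPM against 39.2 and 38.5 CPM and was at 0 in all untreated libraries. Krt5, the partner of Krt14 in the basal layer, stood at 13.0 and 17.4 CPM against 49.2 and 31.5 CPM after DSS and at 0 without it. Ly6d, Lgals7 (galectin-7) and Sult2b1, which are all made by stratified epithelium, were higher in S203AKI libraries in untreated mice too. There 5.60% to 10.2% of cells per library held a Lgals7 UMI, although Krt5 and Krt6a were at 0. The source of these transcripts in untreated mice was not tested. Lgals7 stood at 32.9 and 30.9 CPM in untreated WT and 51.2 and 45.6 CPM in untreated S203AKI libraries, and at 28.9 and 17.4 CPM and 48.5 and 38.2 CPM after DSS. All 4 S203AKI libraries were above all 4 WT libraries for Lgals7, Sult2b1 and the apoptosis-related gene Phlda1, against 0.602% of genes tested. As these genes were named for their small p in the same libraries, this gap follows in part from that choice. Beyond Krt14 and Gsta4, the main edgeR fit called none of the genes named in this paragraph. DESeq2 also called Krt5, Krt6a, Lgals7 and Ly6d, and edgeR with the replicate block also called Krt17 and Lgals7. Without a filter on low counts edgeR called all of them, in a fit where a gene's own spread between libraries entered little. Ppbp, a platelet chemokine gene also among the first 10, stood at 26.3 CPM in DSS-treated S203AKI replicate 2 and at 6.36 CPM or less in every other library, with a log2 fold change of 2.91 in edgeR, 1.57 without that replicate, and 3.55 without DSS-treated S203AKI replicate 1, where edgeR called it (adjusted p 0.00501). Krt17 was called by edgeR without untreated WT replicate 2 (2.85, adjusted p 0.0341) and without untreated S203AKI replicate 2 (2.75, adjusted p 0.00838).

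**Figure D1:**
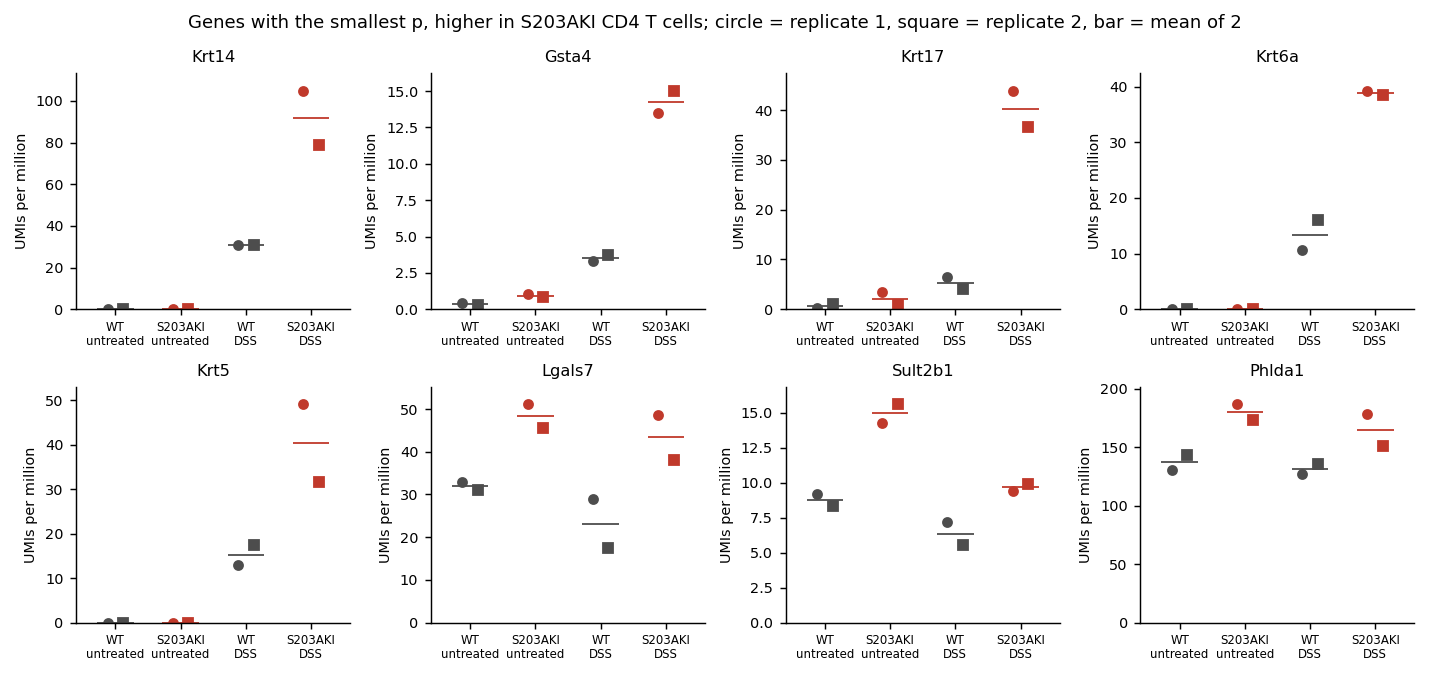
CPM in CD4 T cells (vertical axes, each from 0) for 8 of the 10 genes with the smallest p among those higher in S203AKI mice, by group and library. Circles are replicate 1, squares replicate 2 and bars the mean of both. Krt14, Krt6a and Krt5 are at or next to 0 in untreated mice and highest in the DSS-treated S203AKI libraries, where Krt14 reaches 105 CPM, whereas Lgals7, Sult2b1 and Phlda1 are above every WT library in both treatments.

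Few cells carried the keratin transcripts. In the DSS-treated libraries 8 and 25 WT and 30 and 21 S203AKI cells held a Krt14 UMI, with up to 169, 128, 311 and 536 UMIs in 1 cell, and cells with at least 5 Krt14 UMIs supplied 89.7% to 98.8% of each library's Krt14 UMIs. In DSS-treated S203AKI replicate 2, 469 of the 571 Krt17 UMIs came from 1 cell. Among the 19833 barcodes kept as CD4 T cells, 19 held 10 or more UMIs of Krt14 and Krt5, 8 of them in WT and 11 in S203AKI mice, all after DSS. Their median was 17582 UMIs per cell against 2551.5 in the other CD4 T cells, and they held 2 to 46 UMIs of the T cell genes, with a median of 6. Per DSS-treated library they numbered 4 and 4 in WT and 5 and 6 in S203AKI mice. They ranged from 2333 to 17751 UMIs per cell in WT and from 12198 to 46375 in S203AKI mice. The median of their Krt14 and Krt5 UMIs was 92.5 in WT and 193 in S203AKI mice. Whether these 19 were CD4 T cells, epithelial cells or a pair of cells in 1 droplet was not tested, and both called genes rest on them. Without these 19 cells Krt14, Gsta4, Krt17, Krt6a, Krt5 and Ppbp fell under the filter on low counts and were no longer tested. Since the cells were picked by their Krt14 and Krt5 UMIs, the loss of the Krt14 call is fixed by that choice, and edgeR called 0 of the 10917 remaining genes (328 below an unadjusted p of 0.05). Lgals7 then had a log2 fold change of 0.41 (SE 0.25, against 0.73 with them) and Ly6d of 0.16 (SE 0.43, against 0.99). Sult2b1 changed less, at 0.57 (SE 0.15, against 0.67), and Phlda1 stayed at 0.35 (SE 0.08). A wider removal left out every cell holding a squamous-epithelium UMI, 10.96% to 15.57% of CD4 T cells per library. These included 227 to 276 cells in each untreated library, where Krt5 and Krt6a were at 0. Without all these cells the same 6 genes and Ly6d were no longer tested, and 0 of 10627 were called (304 below an unadjusted p of 0.05). As these cells were picked by UMIs of the squamous-epithelium list or Krt17, the loss of Krt14, Krt5, Krt6a, Krt17 and Ly6d is fixed by that choice. The keratins were present outside the list as well: among barcodes not on the authors' list, Krt14 stood at 215 and 436 CPM in DSS-treated WT and 339 and 371 CPM in DSS-treated S203AKI libraries, so there the genotypes overlapped. Of the 8 squamous-epithelium genes listed here, 7 were tested, 1 was called and 5 had an unadjusted p under 0.05, all higher (2.1% of all genes). The list's summed level was 44.7 and 52.0 CPM in untreated WT and 59.4 and 49.2 CPM in untreated S203AKI libraries. After DSS it was 118 and 139 CPM in WT and 290 and 275 CPM in S203AKI libraries. The genotypes thus overlapped only in untreated mice, and no gene of the list was at 0 in all libraries. Both calls were also lost without untreated S203AKI replicate 1 (0 called), with log2 fold changes of 1.55 for Krt14 and 1.91 for Gsta4, and without DSS-treated WT replicate 2 (0 called), with 1.53 and 1.93. They were lost as well without DSS-treated WT replicate 1, with 1.57 and 1.81, where only the haemoglobin gene Hbb-bs, named after its value was seen, was called and lower. Without DSS-treated S203AKI replicate 2 the call of Gsta4 was lost at a log2 fold change of 1.81 and Krt14 was the 1 gene called.

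No gene was called lower in S203AKI CD4 T cells by the main edgeR fit (0.0%) or DESeq2, although edgeR with the replicate block called 1, Il1rl1. With no filter on low counts edgeR called 51, Il1rl1, Gbp3, Pld4 and Gzmb among them. In that unfiltered fit a gene's own spread between libraries entered little. In the main fit, 125 lower genes had an unadjusted p under 0.05. The smallest p belonged to Gbp3, an interferon-inducible guanylate-binding protein gene, at 98.8 and 103 CPM in untreated WT and 69.0 and 77.1 CPM in untreated S203AKI libraries, and 121 and 113 CPM and 99.6 and 87.6 CPM after DSS. Within each treatment both S203AKI libraries lay below both WT libraries, and the log2 fold change was -0.41 (SE 0.08, edgeR adjusted p 0.690). Gbp7, of the same family, lay lower in both treatments too, at a log2 fold change of -0.31.

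Il1rl1, the gene of the interleukin-33 receptor ST2 that marks a tissue-repair subset of colonic regulatory T cells, stood at 28.6 and 21.1 CPM in untreated WT and 17.0 and 14.4 CPM in untreated S203AKI libraries. After DSS it stood at 59.9 and 39.5 CPM in WT and 34.6 and 25.0 CPM in S203AKI libraries. The S203AKI libraries were the lower ones in both treatments, with a log2 fold change of -0.73 (SE 0.16, interval -1.10 to -0.37) and an edgeR adjusted p of 0.999. With the replicate block it was -0.71 (SE 0.09, edgeR adjusted p 0.0238), and DESeq2 gave an adjusted p of 0.0596. Il7r, the interleukin-7 receptor gene that supports T cell survival, had a log2 fold change of -0.29 and Bcl2l1, which encodes the anti-apoptotic protein Bcl-xL, of -0.31. Bcl2l1 stood at 91.1 to 118 CPM in untreated WT, 77.2 to 77.8 CPM in untreated S203AKI, 84.7 to 92.7 CPM in DSS-treated WT and 74.6 to 83.1 CPM in DSS-treated S203AKI libraries, with all 4 S203AKI libraries below all 4 WT libraries (0.319% of genes tested). The same held for Mvd, an enzyme gene of cholesterol synthesis, and for Pola1, the catalytic subunit gene of DNA polymerase alpha. All of these lower genes were named for their small p in the same libraries, so such gaps follow in part from that choice. Pld4, Gimap7 and Itgb8, the gene of an integrin chain that activates TGF-β, complete the first 10 and lay lower in S203AKI libraries within each treatment.

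**Figure D2:**
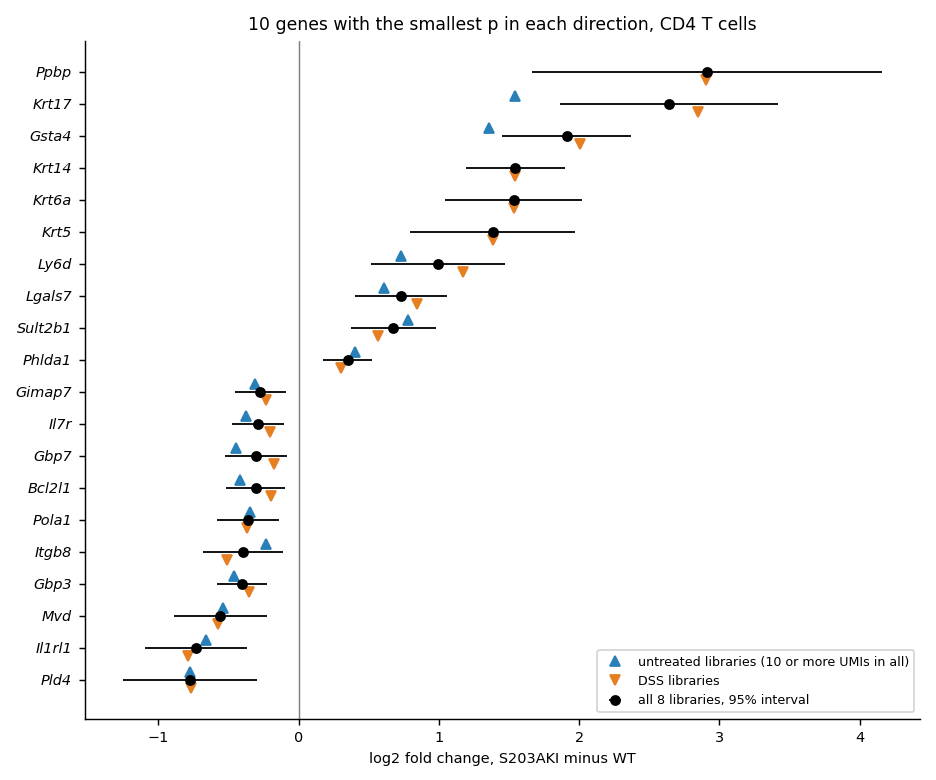
Log2 fold change of S203AKI over WT (horizontal axis) for the 10 genes with the smallest p in each direction. Black points are the fit over 8 libraries with 95% intervals, blue triangles the untreated and orange triangles the DSS-treated libraries, and a blue triangle is left out where untreated libraries held fewer than 10 UMIs in all. Only Krt14 (1.55) and Gsta4 (1.91) passed the adjusted threshold, and the lower genes lie between -0.77 and -0.27.

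None of the Th17 genes separated the genotypes in the same direction in both treatments. Of the 21 tested, 0 were called by the main edgeR fit, DESeq2 called none, and 0 had an unadjusted p under 0.05, against 3.24% of all genes. The median log2 fold change of the list was 0.14, with 15 of 21 above 0, beside -0.00 and 49.7% for all genes. Without a filter on low counts edgeR called, for instance, Il17a and Il17f higher, in a fit where a gene's own spread between libraries entered little.

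Il17a stood at 335 and 415 CPM in untreated WT and 420 and 1186 CPM in untreated S203AKI libraries. After DSS it stood at 658 and 319 CPM in WT and 1334 and 169 CPM in S203AKI libraries, so the highest and the lowest of all 8 libraries were the 2 DSS-treated S203AKI replicates. The log2 fold change was 0.85 (SE 0.53, interval -0.31 to 2.01). It was 0.19 without DSS-treated S203AKI replicate 1 and 1.24 without replicate 2, with edgeR adjusted p of 0.996 and 0.932. Under the alternatives the adjusted p lay between 8.18e-16, in the edgeR fit without a filter on low counts, and 1.0. In that unfiltered fit a gene's own spread between libraries entered little.

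Il17f and Il22 followed the same libraries. Il17f stood at 42.7 and 67.8 CPM in untreated WT, 60.4 and 162 CPM in untreated S203AKI, 79.7 and 24.1 CPM in DSS-treated WT and 101 and 12.7 CPM in DSS-treated S203AKI libraries. Il22, whose product acts on epithelial cells, stood at 205 and 251 CPM and 299 and 435 CPM in untreated WT and S203AKI libraries and at 186 and 108 CPM and 239 and 44.9 CPM after DSS. In untreated mice both S203AKI libraries were above both WT libraries for Il22, and after DSS they enclosed the WT libraries for both cytokines. The log2 fold changes were 0.53 (SE 0.58) for Il17f and 0.30 (SE 0.41) for Il22, and that of Il17f was -0.00 at its lowest when 1 library was left out.

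Pooled over treatments, no receptor or regulator of the programme was called. Il23r, the receptor gene that maintains Th17 cells, had a log2 fold change of 0.10 (SE 0.31) and Il1r1, the interleukin-1 receptor gene, of 0.34 (SE 0.28). Ccr6, the chemokine receptor gene of Th17 cells, was at -0.05 (SE 0.24). The transcription factor genes Rora, Batf, Irf4, Maf, Stat3, Ahr and Hif1a lay between -0.13 and 0.16, with SE from 0.10 to 0.18. For Stat3 the 95% interval of -0.22 to 0.21 and for Rora that of -0.29 to 0.24 leave room for small differences in either direction.

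A genotype difference that depended on treatment was looked for with an interaction term, since a pooled value averages over it. Of 10965 genes 0 passed it in edgeR (0.0%) and 409 were below an unadjusted p of 0.05 (3.73%), while DESeq2 called 1, the immunoglobulin gene Ighm. In 255 of the 409 the S203AKI to WT ratio was lower after DSS. Genotype contrasts within 1 treatment were taken from 1 edgeR fit of all 8 libraries by group, so they shared its filter and its estimates of spread. They called 0 genes in untreated libraries, where 572 were below an unadjusted p of 0.05 (5.22%), and 0 in DSS-treated libraries, where 207 were (1.89%). The Th17 list held 4 of 21 genes at an unadjusted p under 0.05, and in all 4 the S203AKI to WT ratio was lower after DSS. They were Il21, a cytokine gene of Th17 and follicular helper cells, Il6ra, the interleukin-6 receptor gene, Batf and the chemokine gene Ccl20. Il21 stood at 12.6 and 19.3 CPM in untreated WT and 30.2 and 33.7 CPM in untreated S203AKI libraries, against 16.2 and 13.4 CPM and 13.1 and 12.0 CPM after DSS. Its log2 fold change was 1.01 (SE 0.21) in untreated mice and -0.28 (SE 0.21) after DSS. The corresponding values were 0.64 and -0.67 for Il6ra and 0.34 and -0.30 for Batf. Ccl20 had a log2 fold change of 2.15 in untreated mice, with 119 CPM in replicate 2 of the S203AKI mice against 36.4 CPM in replicate 1, and of -0.55 after DSS. None of these differences passed the adjusted threshold, whose smallest adjusted p was 0.998.

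**Figure D3:**
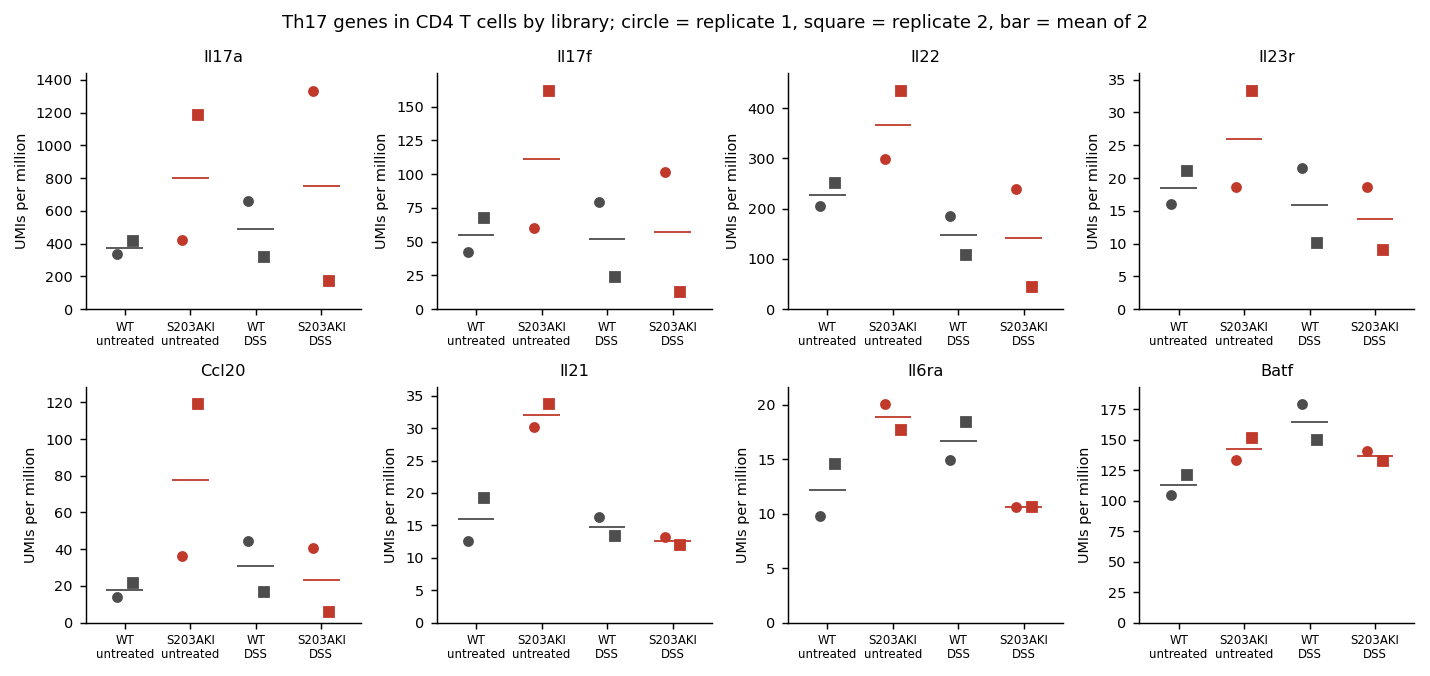
CPM in CD4 T cells (vertical axes, each from 0) for 8 Th17 genes by group and library, with circles for replicate 1, squares for replicate 2 and bars for the mean of both. Il17a and Il17f differ more within the S203AKI groups than between genotypes (Il17a 1334 and 169 CPM in the DSS-treated S203AKI libraries), and Il21 and Il6ra are higher in S203AKI than in WT libraries without DSS and lower with it.

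Of 8 tested genes of the Th2 and follicular helper list, 0 were called in either fit, and 4 had an unadjusted interaction p under 0.05 (3.73% of all genes). All 4 were lower after DSS, as were 255 of the 409 such genes in all. Sh2d1a, the gene of the signalling adaptor SAP, stood at 87.5 and 87.7 CPM in untreated WT and 110 and 99.6 CPM in untreated S203AKI libraries. After DSS it stood at 110 and 91.1 CPM in WT and 76.5 and 76.4 CPM in S203AKI libraries. The order of the genotypes was thus opposite in the 2 treatments, with log2 fold changes of 0.26 and -0.42, and pooled it was -0.08. Tox, a transcription factor gene of the same programme, had 0.52 without and -0.14 with DSS.

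Of 18 regulatory T cell genes tested, 0 were called by the main edgeR fit or DESeq2. With the replicate block, and without a filter on low counts, edgeR called Il1rl1 lower. In the main fit 14 had a log2 fold change below 0, with a list median of -0.08. An unadjusted p under 0.05 was found for 2, both lower (1.14% of all genes), namely Il1rl1 and Il2ra, the latter named after its value was seen. Foxp3, the defining transcription factor gene, stood at 54.1 and 48.4 CPM in untreated WT, 45.7 and 33.9 CPM in untreated S203AKI, 122 and 142 CPM in DSS-treated WT and 106 and 146 CPM in DSS-treated S203AKI libraries. Its log2 fold change was -0.21 (SE 0.13), and it was -0.12 without untreated S203AKI replicate 2, -0.14 without DSS-treated S203AKI replicate 1 and -0.35 without DSS-treated S203AKI replicate 2. The summed level of the list was 3507 and 3752 CPM in untreated WT and 3241 and 3844 CPM in untreated S203AKI libraries, and 4482 and 4659 CPM and 4810 and 4150 CPM after DSS, so the genotypes overlapped in both treatments. Il10, the gene of an anti-inflammatory cytokine, differed by -0.06 (SE 0.11), Ctla4, an inhibitory receptor gene, by 0.08 (SE 0.09) and Icos by -0.17 (SE 0.10).

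In the Th1 and cytotoxic list, 0 of 18 genes were called by the main edgeR fit or DESeq2 and 1, Gzmb, had an unadjusted p under 0.05 (3.24% of all genes). Without a filter on low counts edgeR called Gzmb lower, in a fit where a gene's own spread between libraries entered little. Gzmb, which encodes the cytotoxic protease granzyme B, stood at 180 and 241 CPM in untreated WT and 196 and 148 CPM in untreated S203AKI libraries, and at 264 and 270 CPM and 218 and 205 CPM after DSS. The log2 fold change was -0.33 (SE 0.11, edgeR adjusted p 0.999). Ifng, the interferon-γ gene, differed by 0.03 (SE 0.15).

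The share of cells with a Gzmb UMI was also lower. With each cell thinned to 1000 UMIs, it was 10.5% and 12.6% in untreated WT, 10.2% and 7.77% in untreated S203AKI, 12.1% and 11.8% in DSS-treated WT and 8.51% and 9.72% in DSS-treated S203AKI libraries. The means were 11.7% ± 0.895 (SD, n = 4) and 9.05% ± 1.12 (SD, n = 4), without overlap, and the two-sided exact permutation p within treatments was 0.0556, the smallest that 36 arrangements can give, or 0.667 adjusted over 12 markers. Unthinned shares were 19.7% ± 1.25 and 15.96% ± 3.37 and overlapped. Fibroblast-like barcodes, which should lack the gene, showed 0% to 0.543% per library at medians of 3817 to 6900 UMIs. For Il17a the thinned shares were 14.4% ± 4.21 in WT and 19.95% ± 13.3 in S203AKI libraries (exact permutation p = 0.611, n = 4 per genotype), with a fibroblast-like share of at most 2.42%. The Il17a difference of 5.50 percentage points rested on single libraries: it was -1.51 without DSS-treated S203AKI replicate 1, 1.51 without untreated S203AKI replicate 2, 3.08 without DSS-treated WT replicate 2, 9.49 without untreated S203AKI replicate 1 and 12.5 without DSS-treated S203AKI replicate 2. For Foxp3 they were 7.31% ± 3.505 and 6.40% ± 3.54 (exact permutation p = 0.222, n = 4 per genotype). The Foxp3 difference of -0.916 points was -0.331 without DSS-treated S203AKI replicate 1, -0.542 without DSS-treated WT replicate 2 and -1.50 without DSS-treated S203AKI replicate 2. None of the 12 markers could pass the adjusted threshold in this design.

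Interferon-inducible genes lay below 0 in 15 of 17 cases, with a median log2 fold change of -0.17. None was called, and 3 had an unadjusted p under 0.05, all lower (1.14% of all genes), among them Igtp, an immunity-related GTPase gene, at 158 and 196 CPM in untreated WT and 126 and 121 CPM in untreated S203AKI libraries against 160 and 179 CPM and 178 and 160 CPM after DSS. The genotypes were apart for Igtp in untreated mice and overlapped after DSS. Proliferation genes lay below 0 in 14 of 17 cases with a median of -0.14 and 0 calls, and Top2a, the DNA topoisomerase gene of dividing cells, was lower in all 4 S203AKI libraries, at 111 to 171 CPM against 175 to 190 CPM in WT (0.319% of genes tested), with 111 CPM in untreated S203AKI replicate 2 and 163 CPM or more in the others.

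Heat-shock genes had higher levels in untreated S203AKI libraries. All 20 tested had a log2 fold change above 0, with a median of 0.50, and 14 had an unadjusted p under 0.05, all higher (2.1% of all genes), yet the main edgeR fit and DESeq2 called 0. Without a filter on low counts edgeR called, for instance, Hspa1a, Hspa8 and Dnaja1 higher. In that unfiltered fit a gene's own spread between libraries entered little. The summed level of the 20 genes was 9955 and 14581 CPM in untreated WT and 24187 and 24092 CPM in untreated S203AKI libraries, against 12474 and 10316 CPM and 11265 and 11986 CPM after DSS. The list's median log2 fold change was 0.82 in untreated mice, where the sums did not overlap between genotypes, and 0.13 after DSS, where they did. Hspa8, a constitutive chaperone gene, stood at 2020 and 2685 CPM in untreated WT and 3842 and 4016 CPM in untreated S203AKI libraries, and at 2584 and 2377 CPM and 2552 and 2612 CPM after DSS. Hspa1a, which is induced by heat and other stress, stood at 67.2 and 155 CPM and 1474 and 383 CPM in untreated and at 178 and 155 CPM and 121 and 201 CPM in DSS-treated WT and S203AKI libraries. With each cell thinned to 1000 UMIs, an Hspa1a UMI was found in 3.77% to 9.33% of CD4 T cells in WT and 8.12% to 33.4% in S203AKI libraries, and in 50.5% to 73.8% of fibroblast-like barcodes. The shares in T cells were thus below those in the other cell type, and free RNA cannot be told apart from expression there. For 13 of the 20 genes the interaction had an unadjusted p under 0.05 (3.73% of all genes). All 13 were lower after DSS, as were 255 of the 409 such genes in all. Without cells holding an Hspa1a or Hspa1b UMI edgeR called 0 genes between genotypes and 265 were below an unadjusted p of 0.05. Krt14, Gsta4, Krt17, Krt6a, Krt5 and Ppbp were then no longer tested. The cells were picked by heat-shock transcripts, and the main fit had called no heat-shock gene, so this count cannot decide on those genes. The removal took 58.4% and 37.9% of cells in untreated S203AKI and 13.7% and 20.9% in untreated WT libraries. Dnaja1 then had a log2 fold change of 0.29 (SE 0.11, against 0.45) and Hspa8 of 0.29 (SE 0.13, against 0.39).

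Of the 18 cholesterol-synthesis and 17 glycolysis genes tested, 0 were called, with list medians of -0.05 and 0.01, and Gapdh and Pkm differed by 0.01 each. The immediate-early list had a median of 0.14 and the NF-κB feedback list of 0.08, each with 0 calls. Their summed levels did not overlap between genotypes in untreated mice. They were 5897 and 6232 CPM in WT and 7139 and 7370 CPM in S203AKI libraries for the immediate-early list. For the NF-κB list they were 3319 and 3561 CPM against 3669 and 4520 CPM, and both lists overlapped after DSS. With 2 libraries against 2 such gaps were common and say little by themselves, for the heat-shock sums too. The T cell identity list (5003 and 4973 CPM in WT, 5391 and 5155 CPM in S203AKI libraries) was apart there as well. So was the Th2 and follicular helper list (303 and 348 CPM against 393 and 420 CPM). Their part in the heat-shock result was not tested. Rel, an NF-κB subunit gene, had log2 fold changes of 0.56 in untreated mice and -0.14 after DSS. Markers of other cells were present in all libraries. The summed level of the B and plasma cell list was 2565 to 6183 CPM in WT and 1407 to 7326 CPM in S203AKI libraries, with both S203AKI extremes after DSS, and its median log2 fold change was -0.01 with 5 of 10 tested genes above 0. All 13 myeloid genes lay below 0, with a median of -0.32 and a summed level of 1218 to 1910 CPM in WT and 664 to 1528 CPM in S203AKI libraries. The 664 CPM stood in DSS-treated S203AKI replicate 2, whereas replicate 1 at 1497 CPM lay above both DSS-treated WT libraries, so the genotypes overlapped after DSS. All 9 tested fibroblast genes lay above 0, with a median of 0.43 (-0.13 in untreated mice and 0.88 after DSS) and summed levels of 27.1 to 80.3 and 66.6 to 186 CPM. None of them was called, and no gene of these lists was at 0 in all libraries. Their part in the results above was not tested.

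**Figure D4:**
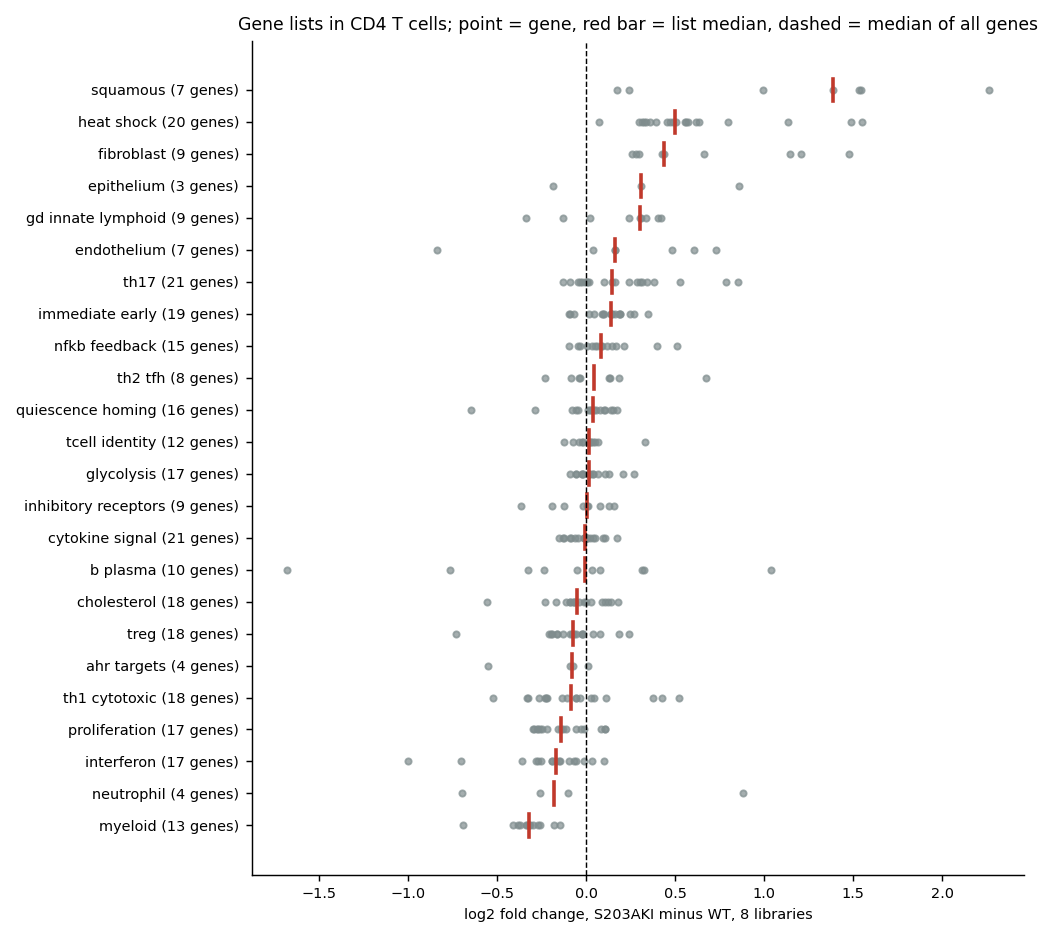
Log2 fold changes of S203AKI over WT (horizontal axis, 8 libraries) for the genes of 24 lists, with 1 point per gene, a red bar at each list's median and a dashed line at the median of all genes tested. The squamous-epithelium list has the highest median, followed by heat-shock genes (0.50), and the myeloid list the lowest (-0.32), while Th17 genes lie around 0.14 and reach 0.85 for Il17a.

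The 3477 CD4 T cells with a Foxp3 UMI were taken to stand for regulatory T cells. Per library they made up 7.12% to 27.7% of CD4 T cells, against 0% to 0.717% of fibroblast-like barcodes with a Foxp3 UMI, both unthinned, at median depths of 2161.5 to 3155 and 3817 to 6900 UMIs. An Il22 UMI was found in 3.17% to 13.5% of all CD4 T cells and 0.374% to 2.13% of fibroblast-like barcodes. Of 8123 genes tested there edgeR called 0 (0.0%), 255 were below an unadjusted p of 0.05 (3.14%), and DESeq2 called 1, Il22. It stood at 237 and 171 CPM in untreated WT and 69.0 and 98.8 CPM in untreated S203AKI libraries, and at 103 and 57.5 CPM and 51.8 and 49.6 CPM after DSS. Both S203AKI libraries lay below both WT libraries in each treatment (2.01% of genes tested), with a log2 fold change of -0.97 (SE 0.19, interval -1.37 to -0.58) and an edgeR adjusted p of 0.604. Without DSS-treated WT replicate 2 edgeR called it lower, with an adjusted p of 0.00351. In all CD4 T cells together the value for Il22 was 0.30, and the difference between the populations was not tested. Il10 differed by 0.05 (SE 0.12) and Il17a by 0.21 (SE 0.46) in these cells. Il1rl1 differed by -0.42, against -0.73 in all CD4 T cells.

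**Figure D5:**
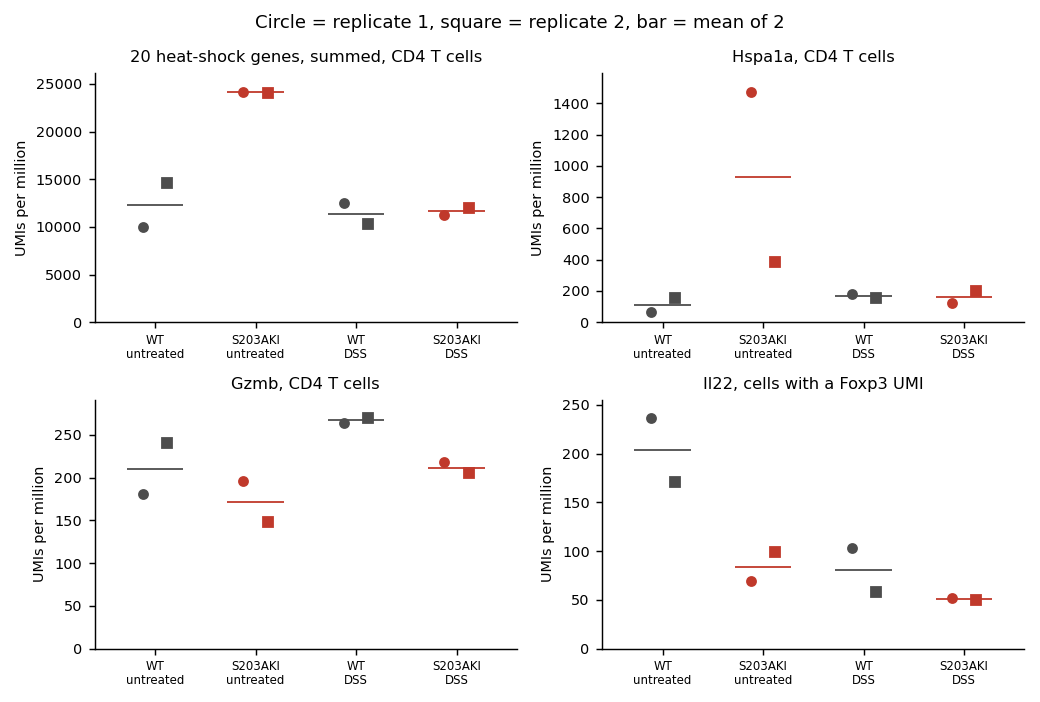
CPM (vertical axes, each from 0) by group and library for heat-shock genes and Gzmb in CD4 T cells and for Il22 in cells with a Foxp3 UMI, with circles for replicate 1, squares for replicate 2 and bars for the mean of both. The summed heat-shock level is highest in the untreated S203AKI libraries (24187 and 24092 CPM), and Il22 is lower in the S203AKI libraries within each treatment.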

How the data were processed

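Droplet 3' libraries of colonic CD4-enriched cells were deposited as 8 tables of UMI counts, which the authors made with Cell Ranger 3.1.0 on mm10, and Seurat 4.0.1 is also named, per the submitters' processing notes. Row names came from a deposited gene list of 31053 rows, checked against identifiers (98.5% matched). How the authors chose listed cells is not given in the sources used here; no doublet caller was run.

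UMIs were summed per library over CD4 T cells and tested with edgeR 4.0.16 (TMM, filterByExpr, quasi-likelihood test, DSS as covariate, Benjamini-Hochberg over all genes) in R 4.3.3, and DESeq2 1.42.0 was an alternative. Depth was 6722571 to 15569035 UMIs per library, and levels are UMIs scaled to 1000000 (CPM). Shares used exact permutation within treatments after thinning to 1000 UMIs, leaving out 209 WT and 110 S203AKI cells below it. The fit was tested on 1 set of simulated counts, which held no DSS effect, unlike the real libraries. It recovered 81.25% of 96 genes changed 2-fold and 100% of 99 changed 4-fold, and it called 11 unchanged genes.

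Named genes were the 10 with the smallest p per direction at 5 CPM or more in a genotype, since few were called, every tested Th17 gene, and called genes plus up to 4 of the highest level per list. Immunoglobulin, T cell receptor segment and mitochondrial genes and unnamed gene models (2 among the lower genes) were not named. Il2ra, Hspa1a, Hspa1b, Foxp3, Il10 and Ifng were added after their values were seen. Members, lists and comparisons were chosen with earlier results of these data known. Alternatives were another normalization, no filter on low counts, a stricter T cell rule (3 T cell UMIs, 0 of the other lineages), no covariate, single treatments, pairing by animal number and leaving out each library. Leaving out cells with Hspa1 or squamous UMIs was added after seeing the data. The gene altered in the mutant line and comparisons that need it are not reported here.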

Additional observations from a re-analysis of the deposited data

Results flagged for a closer look

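Among 276 sets of 4 libraries of 1 genotype, 14 (5.07%) had a highest or lowest library whose gap to the next exceeded the 95% critical value of Dixon's test. Chance flags about 1 in 20 groups of 4 values drawn from 1 population. Each set here held 2 untreated and 2 DSS-treated libraries, so that rate need not hold. Most were markers of other cells in single DSS-treated libraries. DSS-treated WT replicate 2 was highest among WT libraries for Igha (2219 CPM), S100a9 (45.9 CPM), S100a8 (26.3 CPM), Clec4d (13.4 CPM) and Mgp (18.0 CPM). DSS-treated S203AKI replicate 2 was highest among S203AKI libraries for Mgp (52.6 CPM) and lowest for H2-Ab1 (117 CPM). DSS-treated S203AKI replicate 1 was highest for Ccr6 (38.2 CPM), Ccr4 (42.3 CPM) and Pecam1 (65.6 CPM). Epcam was highest in untreated WT replicate 2 (10.5 CPM) and in untreated S203AKI replicate 1 (16.7 CPM). Sh2d1a was highest in DSS-treated WT replicate 1 (110 CPM), and Top2a was lowest in untreated S203AKI replicate 2 (111 CPM).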

How the results depend on the processing

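The count of genes called between genotypes in CD4 T cells (2) was 2 with relative log expression scaling, 7 with DESeq2, 5 with the libraries paired by neighbouring animal numbers as a replicate block (Krt14, Gsta4, Krt17, Lgals7 and Il1rl1) and 209 without a filter on low counts (158 higher and 51 lower). It was 0 under the stricter T cell rule and 0 without the DSS covariate. Genotype contrasts within untreated and within DSS-treated libraries, from 1 fit of all 8 libraries by group, called 0 each. The count was 0 without cells holding an Hspa1a or Hspa1b UMI, 0 without cells holding a squamous-epithelium UMI and 0 without cells of 10 or more Krt14 and Krt5 UMIs. In these 3 settings Krt14 and Gsta4 were no longer tested. The count was 0 to 4 when 1 library was left out. Log2 fold changes of Krt14 and Gsta4 were 1.27 and 1.48 under the stricter rule and 1.53 and 1.92 without the covariate. In the contrasts within 1 treatment they were 2.62 (on 1 Krt14 UMI) and 1.36 in untreated and 1.54 and 2.00 in DSS-treated libraries. The main fit gave 1.55 and 1.91. The animal numbers do not establish pairs. Deviations from the group means correlated at r = 0.0792 for untreated pairs and 0.205 for pairs with DSS. With 2 libraries per group, both pairs of a treatment give the same r by construction, so these values cannot decide whether the animals were paired. In cells with a Foxp3 UMI (0) it was 1 with DESeq2, 52 without a filter and 0 to 1 with 1 library left out (Il22 or Clec10a). For the interaction (0) it was 1 with DESeq2, 83 without a filter and 0 to 3 with 1 library left out. Without the filter edgeR gave each gene 99215 degrees of freedom against 10.7, so a gene's own spread between libraries entered little, and 64 of the 209 genes were not in the filtered table. Of 2368 values of named genes under alternatives, 15 lost and 37 gained a call and no called gene changed sign, although 218 uncalled values did. The cause of the other changes was not tested. The 95% interval lay within a 2-fold change in either direction for 92.5% of genes.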
